A study of Mus musculus with 6 samples.

Results

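Cathepsins are the main proteases of lysosomes. Most are cysteine proteases of the papain family, while Ctsd and Ctse are aspartic proteases and Ctsa is a serine carboxypeptidase. They are made as inactive precursors, carried to the lysosome largely by mannose 6-phosphate receptors, activated there by cleavage at acid pH, and held in check outside it by cystatins. In myeloid cells they degrade engulfed proteins, cut the invariant chain from class II molecules, and activate the serine proteases of neutrophil granules.

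The 10 cathepsin genes Ctsa, Ctsb, Ctsc, Ctsd, Ctse, Ctsh, Ctsk, Ctsl, Ctss and Ctsz were read through every probe set that the platform annotation assigns to one of these symbols. This gave 22 of the 45101 probe sets in the table, each with 1 gene symbol, and 10 of 18193 genes. Each gene was represented by its brightest probe set (highest 6-array mean), and the others were examined beside it.

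The cells were bone marrow cells of healthy C57BL/6 mice. One group of 3 arrays had received a synthetic mimic of the microRNA miR-142-3p (the mimic group), and the other group of 3 arrays a CTRL oligonucleotide (the control group), each at 100 nM with the GeneSilencer reagent. Both groups were then given GM-CSF and IL-6 from 5 h onward for 4 days, a culture meant to yield MDSCs (myeloid-derived suppressor cells), which are immature myeloid cells able to dampen T cell responses. The labels state no selection of cells after culture and no transgene, so each array measured a mixed culture. miR-142-3p is made almost only in blood cells, where it is abundant, and the marrow cells' own supply of it was not measured here.

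The agent itself is shown because every comparison is a comparison with and without it. It is the mature mmu-miR-142a-3p of RefSeq (GRCm38.p6, chr11:87756903-87756925, plus strand), and the capitals mark its seed, bases 2 to 8, which pairs with target RNAs.
mmu-miR-142a-3p: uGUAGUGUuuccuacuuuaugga

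Values are the deposited log2 signals, one per probe set and array, and a fold change is the mimic mean minus the control mean on the log2 scale. The groups were compared with limma over all genes, two-sided, with Benjamini-Hochberg adjustment and a threshold of 0.05. The labels do not say whether the arrays came from separate cultures, so the p-values may measure technical spread only, and 3 arrays a group limit the precision. Correlations between arrays ran from 0.982 to 0.996. Control array 1 was the highest or the lowest control for 78.6% of all genes. In each gene only the middle control is neither, so this share is high for any array. For 49.6% of all genes control array 1 was the control farthest from the mimic mean. All 9 measured mature neutrophil markers averaged at least 1 over the arrays. So did all measured markers of neutrophil precursors (7), monocytes (7) and megakaryocytes (6), so this cut identifies no cell type. The summed linear signal of the mature neutrophil markers was 15600 to 15900 in mimic arrays and 12900 to 15200 in control arrays. That sum is weighted to the brightest genes and does not stand for each of them. By the test 0 of the 9 rose and 1 fell, against 1.17% and 1.59% of all genes. The gene that fell was Mmp8 (-0.95, limma adjusted p 0.0166), and the median over the 9 was 0.115. Of 8 measured T and NK cell genes, Cd3g and Ncr1 averaged below 1, while Thy1 fell to 4.43 ± 0.05 in mimic arrays, against 6.79 ± 0.50 in control arrays (SD, n = 3 each; limma adjusted p 0.00673). Gzmb of the same list rose by 2.02 (limma adjusted p 0.00731). Means were higher in mimic arrays for 5 of the 8 and lower for 3, so the list had no common direction.

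None of the 10 cathepsin genes passed the test over all genes, in either direction. The background was 503 of 18193 genes called, or 2.76%, with 213 higher and 290 lower in mimic arrays (1.17% and 1.59%). A second quantile normalization changed that split to 322 higher and 290 lower. Bright genes were set apart as those whose higher group averaged 6 or more, 2504 genes with 9 of the 10 cathepsins among them, and 8.75% of these were called. At an unadjusted p under 0.05 there were 5 cathepsins, Ctsa, Ctsb, Ctse, Ctsl and Ctss, against 17.0% of all genes and 33.1% of the bright genes. The calls depended on single arrays: leaving out mimic array 1, mimic array 3 or control array 2 left no call among all 18193 genes, and leaving out mimic array 2 left 65.

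Cathepsin means were higher in mimic arrays for 6 genes and lower for 4, and the fold changes ran from -0.40 to 0.54 with a median of 0.115, against 0.009 over all genes. The median size of change was 0.286 against 0.125 over all genes and 0.171 over the bright genes. The 2 groups did not overlap for 6 of the 10, with Ctsb, Ctse, Ctsl and Ctss higher and Ctsa and Ctsh lower in mimic arrays. Non-overlap was common in these arrays, at 22.2% of all genes (11.0% higher, 11.1% lower) and 45.8% of the bright ones (22.8% higher, 23.0% lower). For the representing probe sets, all 10 intervals (95%) lay within 2-fold in either direction, so a change of more than 2-fold lies outside those intervals. Of the 10, 5 lay within 1.5-fold. Over all 22 probe sets 21 intervals lay within 2-fold. The exception was the second Ctse probe set, 1427797_s_at, with an interval of -1.40 to 0.07.

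**Figure D1:**
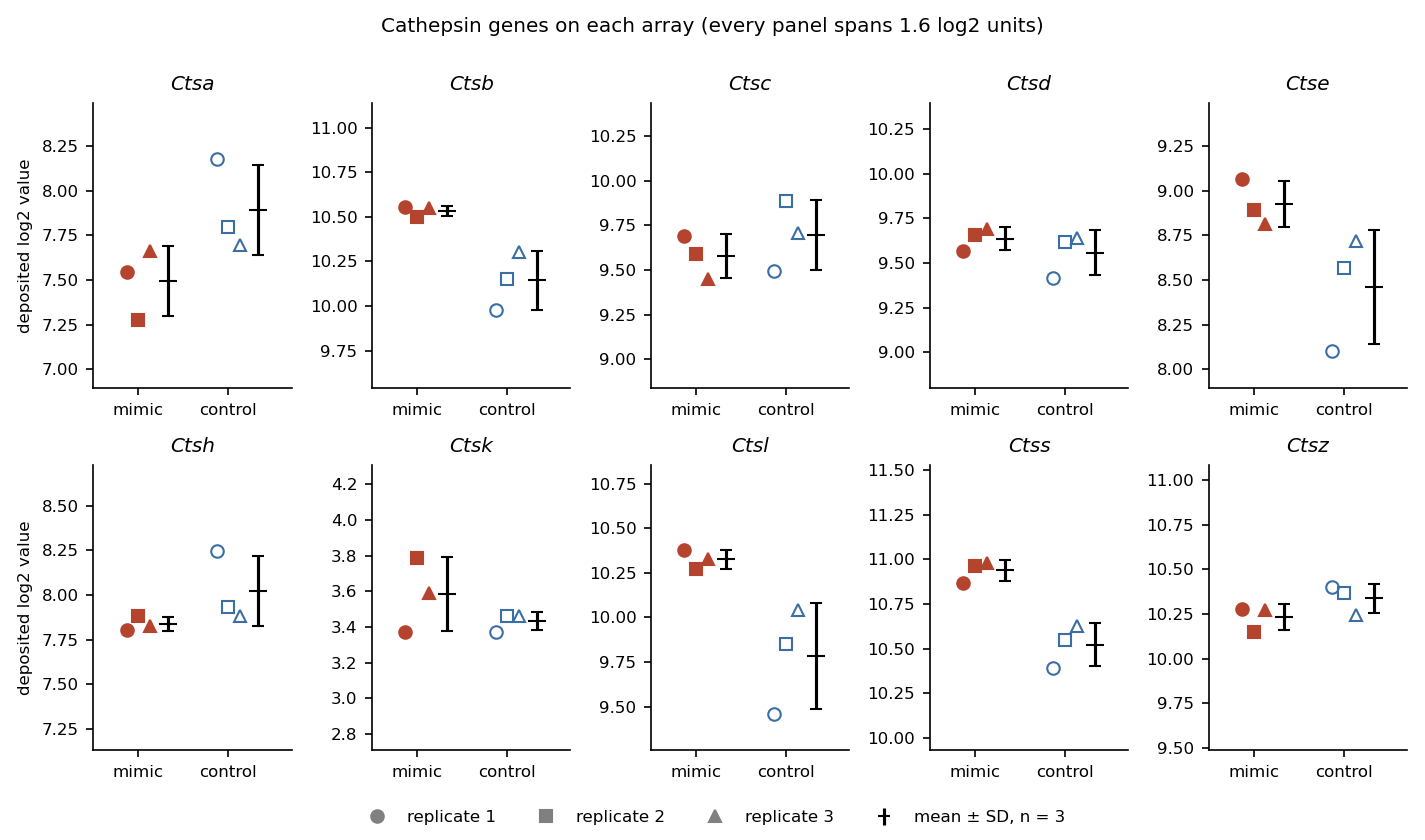
Deposited log2 values of the 10 cathepsin genes (y axis, 1.6 log2 units in every panel), with the 3 mimic arrays left of the 3 control arrays; points are arrays, with a shape for each array number, and bars are the mean ± SD. The groups separate upward for Ctsb, Ctse, Ctsl and Ctss and downward for Ctsa and Ctsh. Control array 1 is the highest or the lowest control in every panel, as it is for 88.2% of the bright genes.

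Ctss, a cysteine endopeptidase that makes the last cuts in the invariant chain of antigen-presenting cells, came nearest to the threshold. It had 10.87, 10.96 and 10.98 in mimic arrays 1, 2 and 3, against 10.39, 10.55 and 10.63 in control arrays 1, 2 and 3. Every mimic array lay above every control array, by at least 0.24. The means were 10.94 ± 0.06 and 10.52 ± 0.12 (SD, n = 3 each), a 1.33-fold higher signal in mimic arrays (log2 fold change 0.42 ± 0.10 SE, 95% interval 0.19 to 0.65, limma adjusted p 0.0768). In these bulk samples, a different share of a cell type and a different amount of RNA per cell cannot be told apart.

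Ctsl, an endopeptidase of broad specificity that cuts the invariant chain in thymic epithelium and digests proteins in most lysosomes, had the largest difference. Its values were 10.38, 10.27 and 10.33 in mimic arrays 1, 2 and 3, against 9.46, 9.85 and 10.04 in control arrays 1, 2 and 3. The mimic arrays lay close together and above all controls, while control array 1 was well below the other controls. The signal averaged 10.33 ± 0.05 in mimic arrays and 9.78 ± 0.30 in control arrays, 1.46-fold higher in mimic arrays (0.54 ± 0.15, 95% interval 0.20 to 0.89, limma adjusted p 0.114). Without control array 1 the log2 difference was 0.38, with an adjusted p of 0.135.

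Ctsb, which acts both as an endopeptidase and as a carboxydipeptidase, showed the same order of arrays. It had 10.55, 10.50 and 10.55 in mimic arrays 1, 2 and 3, against 9.98, 10.15 and 10.31 in control arrays 1, 2 and 3. The groups were 0.19 apart at their nearest arrays. The means were 10.53 ± 0.03 in mimic arrays and 10.15 ± 0.16 in control arrays, a 1.31-fold higher signal with the mimic (0.39 ± 0.11, 95% interval 0.14 to 0.64, limma adjusted p 0.114).

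The calls of these 3 endopeptidases depended on how the spread was modelled and on how many dim genes shared the correction. With genes of a mean log2 under 5 left out, Ctss, Ctsb and Ctsl all passed upward, with adjusted p of 0.0219, 0.0365 and 0.0436, where 7.11% of the 4093 genes kept were called higher. With a variance trend over the signal and a robust fit the same 3 passed, at 0.0121, 0.0317 and 0.0425, where 1.76% of all genes were called higher. Only Ctss passed when genes of a mean log2 under 3 were left out (adjusted p 0.0396, with 3.92% of 7662 genes called higher) and with array weights (0.0491, with 2.51% called higher). In no fit that left out 1 array did any cathepsin pass. The fits without mimic array 1, mimic array 3 or control array 2 called no gene at all, so they show nothing particular to the cathepsins.

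**Figure D2:**
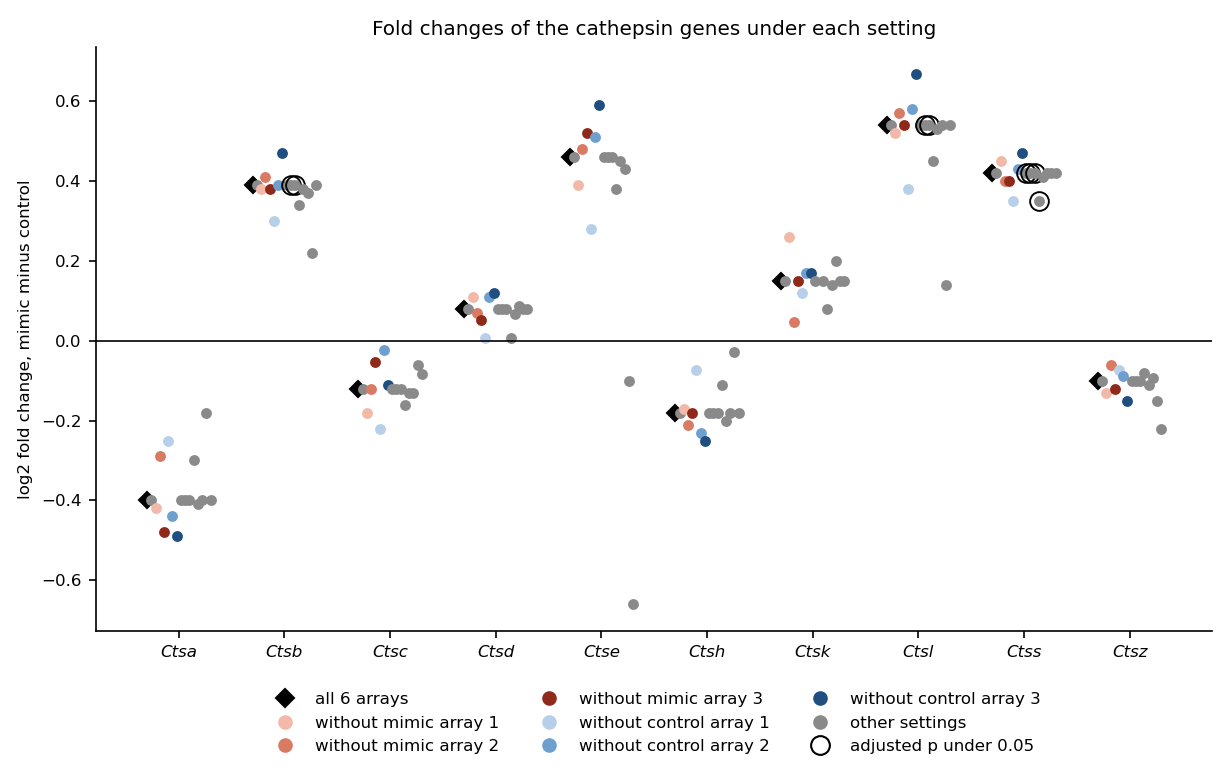
Log2 fold changes of the 10 cathepsin genes (y axis, mimic minus control) under each setting, 1 column per gene on the x axis; diamonds use all 6 arrays, red and blue points leave out 1 mimic or control array, grey points are other settings, and a ring marks an adjusted p under 0.05. Among these 10 genes only Ctss, Ctsb and Ctsl have rings, all above 0, and Ctse is the only gene with points on both sides of 0.

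Promoter sequences of those members with an entry in the RefSeq table were read for 2 motifs. The windows run from 250 bases before to 50 bases after each annotated start (RefSeq, GRCm38.p6), and 7 of the 10 genes, all but Ctsb, Ctse and Ctsh, had 8 windows in the table used. One motif was the E-box CACGTG, the core of the element that TFEB and its relatives bind at lysosomal genes, which reads the same on both strands and lay in 7.15% of 32851 windows of this length. The other was GAAANNGAAA or its reverse complement TTTCNNTTTC, the paired half-sites of the interferon-stimulated response element, found in 3.44% of windows. No matches overlapped each other. The Ctss window (chr3:95526536-95526835, plus strand) and the Ctsl window (chr13:64370471-64370770, minus strand) are shown because these genes had the smallest p and the largest difference of the 10, and the capitals mark the matches.
Ctss: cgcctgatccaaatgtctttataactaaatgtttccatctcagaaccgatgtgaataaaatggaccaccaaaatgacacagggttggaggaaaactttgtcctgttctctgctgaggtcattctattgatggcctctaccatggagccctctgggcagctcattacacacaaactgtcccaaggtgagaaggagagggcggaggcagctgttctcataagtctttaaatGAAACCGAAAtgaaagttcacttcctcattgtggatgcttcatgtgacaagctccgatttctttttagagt
Ctsl: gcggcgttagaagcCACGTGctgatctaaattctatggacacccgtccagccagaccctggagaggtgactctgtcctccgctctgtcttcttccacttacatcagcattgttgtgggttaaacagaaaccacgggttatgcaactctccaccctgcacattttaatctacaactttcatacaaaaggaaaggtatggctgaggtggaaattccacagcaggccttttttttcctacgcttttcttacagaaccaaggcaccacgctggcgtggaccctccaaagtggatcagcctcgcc
The Ctss window holds 1 response-element match, whose first base is 21 bases before the start, and the Ctsl window holds 1 E-box beginning 236 bases before it. A match is a string of letters only, and binding was not measured.

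Ctsk, the collagen-degrading protease of osteoclasts, lies next to Ctss on chromosome 3 and was the dimmest member. It had 3.37, 3.79 and 3.59 in mimic arrays 1, 2 and 3, against 3.37, 3.46 and 3.46 in control arrays 1, 2 and 3, so the groups overlapped. The difference was 0.15 ± 0.12 (95% interval -0.13 to 0.43, limma adjusted p 0.602). The neighbouring pair therefore gave a non-overlapping difference for Ctss and an overlapping one for Ctsk, but the difference between the genes was not tested.

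Ctsc, Ctsz and Ctsh, cysteine cathepsins that act mainly as exopeptidases, did not pass the test. Ctsc, the dipeptidyl peptidase that activates granule serine proteases, had 9.69, 9.59 and 9.45 in mimic arrays 1, 2 and 3, against 9.49, 9.89 and 9.71 in control arrays 1, 2 and 3. The groups overlapped, and the difference was -0.12 ± 0.13 (95% interval -0.41 to 0.17, limma adjusted p 0.709). Ctsz, a carboxypeptidase also called cathepsin X, had 10.28, 10.15 and 10.27 in mimic arrays 1, 2 and 3, against 10.40, 10.37 and 10.24 in control arrays 1, 2 and 3. Control array 3 lay among the mimic arrays, and the difference was -0.10 ± 0.09 (95% interval -0.32 to 0.11, limma adjusted p 0.647). Ctsh, mainly an aminopeptidase, had 7.80, 7.88 and 7.82 in mimic arrays 1, 2 and 3, against 8.25, 7.93 and 7.88 in control arrays 1, 2 and 3. Its groups did not overlap only by a gap under 0.01, and the difference of -0.18 ± 0.12 (95% interval -0.45 to 0.08, limma adjusted p 0.490) was -0.072 without control array 1.

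Neither of the aspartic proteases passed the test. Ctse, which sits in endosomes of antigen-presenting cells, had 9.07, 8.89 and 8.81 in mimic arrays 1, 2 and 3, against 8.11, 8.57 and 8.72 in control arrays 1, 2 and 3. Mimic arrays were all above the controls, by 0.09 at the nearest pair, and control array 1 was the lowest. The means were 8.92 ± 0.13 in mimic arrays and 8.46 ± 0.32 in control arrays (0.46 ± 0.16, 95% interval 0.08 to 0.84, limma adjusted p 0.202). Ctsd, the general lysosomal aspartic protease that also processes prosaposin, had 9.57, 9.65 and 9.69 in mimic arrays 1, 2 and 3, against 9.41, 9.62 and 9.64 in control arrays 1, 2 and 3. Its groups overlapped, and the difference was 0.08 ± 0.10 (95% interval -0.15 to 0.31, limma adjusted p 0.762). Whether Ctse and Ctsd differed in their response was not tested.

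Ctsa, the serine carboxypeptidase that also shields the lysosomal enzymes Neu1 and Glb1 in a complex, had the largest difference downward. It had 7.55, 7.28 and 7.66 in mimic arrays 1, 2 and 3, against 8.18, 7.80 and 7.70 in control arrays 1, 2 and 3. The groups lay 0.03 apart, with mimic array 3 and control array 3 nearly equal. The means were 7.50 ± 0.20 in mimic arrays and 7.89 ± 0.25 in control arrays, a 1.32-fold lower signal with the mimic (-0.40 ± 0.16, 95% interval -0.76 to -0.03, limma adjusted p 0.249). Without control array 1 the difference was -0.25, with an adjusted p of 0.416.

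Ctsd and one of the 2 Ctsa windows each hold 2 E-boxes, which 0.594% of all windows do, and they are shown for that reason with the E-boxes in capitals (Ctsd chr7:142387778-142388077, minus strand, and Ctsa chr2:164833523-164833822, plus strand).
Ctsd: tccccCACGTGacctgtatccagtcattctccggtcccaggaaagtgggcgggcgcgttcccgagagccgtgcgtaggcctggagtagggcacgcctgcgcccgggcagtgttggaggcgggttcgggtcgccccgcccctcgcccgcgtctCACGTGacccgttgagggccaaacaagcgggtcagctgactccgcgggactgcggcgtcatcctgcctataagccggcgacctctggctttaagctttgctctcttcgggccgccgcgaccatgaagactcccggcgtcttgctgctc
Ctsa: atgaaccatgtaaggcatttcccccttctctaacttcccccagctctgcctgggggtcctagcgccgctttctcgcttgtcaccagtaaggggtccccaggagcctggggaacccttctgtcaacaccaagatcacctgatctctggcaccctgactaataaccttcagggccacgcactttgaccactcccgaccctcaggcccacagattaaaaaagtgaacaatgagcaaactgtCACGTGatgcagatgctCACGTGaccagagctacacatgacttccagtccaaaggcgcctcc
The Ctsd E-boxes begin 245 and 98 bases before the start, and those of Ctsa begin 12 bases before and 5 bases after it. Of these E-box genes, Ctsa had a lower mean in mimic arrays and Ctsl and Ctsd higher ones, and none passed the test over all genes. Neither motif was found in the windows of Ctsc, Ctsk and Ctsz, nor in the other window of Ctsa.

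**Figure D3:**
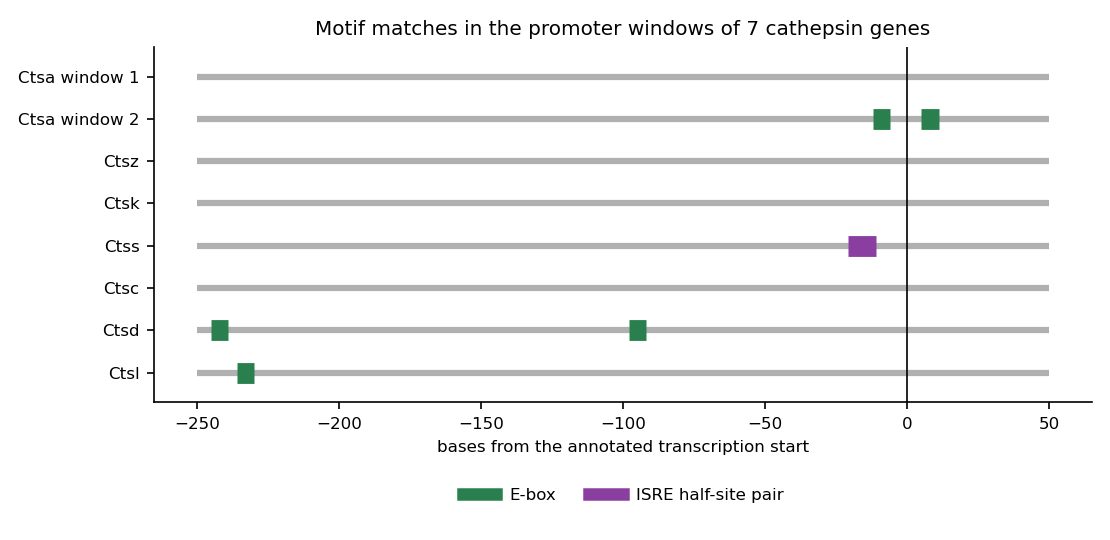
Positions of E-box and interferon response-element matches (x axis, bases from the annotated transcription start) in the 8 promoter windows of 7 cathepsin genes, 1 line per window. Ctsd and 1 Ctsa window carry 2 E-boxes each, Ctsl carries 1, and Ctss carries the only response-element match.

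The spread of the cathepsins lay mainly in the control arrays. The control SD exceeded the mimic SD for 9 of 10 cathepsins, against 55.6% of all genes and 60.9% of the bright genes. Control array 1 was the lowest control for Ctsb, Ctsc, Ctsd, Ctse, Ctsk, Ctsl and Ctss and the highest for Ctsa, Ctsh and Ctsz. It was the highest or the lowest control for 88.2% of the bright genes too. For 9 of the 10 it was also the control farthest from the mimic mean, against 65.9% of the bright genes. Without that array the differences were 0.35 for Ctss, 0.30 for Ctsb and 0.28 for Ctse, with adjusted p of 0.124, 0.171 and 0.279.

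Other probe sets of the same genes did not always follow the one that represented the gene. None of the 22 probe sets passed in the fit over 45037 probe sets, where 0.897% were called, and 7 had an unadjusted p under 0.05, against 13.4% of all. In that fit the representing probe sets of Ctss, Ctsb and Ctsl had adjusted p of 0.119, 0.168 and 0.174. Of the 7 genes with more than 1 probe set, 6 had probe sets of both signs, and 4 of them (Ctsb, Ctsc, Ctse and Ctsh) still did among the 18 probe sets averaging 3 or more. The other 4 probe sets averaged 1.63 or less. The groups did not overlap for 8 of the 22, 5 higher and 3 lower in mimic arrays, against 17.5% of all probe sets (8.62% higher and 8.90% lower).

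Ctsb showed the widest set, with 5 probe sets. Probe set 1417492_at had 6.45, 6.32 and 6.45 in mimic arrays 1, 2 and 3, against 5.80, 5.94 and 6.12 in control arrays 1, 2 and 3, without overlap and in the same direction as the gene's representative. Its difference was 0.45 ± 0.11 (limma adjusted p 0.127 over probe sets), and it passed at 0.0323 when probe sets of a mean under 5 were left out. Probe set 1417491_at ran the other way, with 3.68, 3.81 and 3.63 in mimic arrays 1, 2 and 3, against 4.11, 4.001 and 4.06 in control arrays 1, 2 and 3. Its groups did not overlap either (-0.35 ± 0.09, limma adjusted p 0.150). The remaining Ctsb probe sets, 1448732_at and 1444987_at, had differences of 0.39 ± 0.18 and 0.20 ± 0.11.

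The second Ctse probe set, 1427797_s_at, carries the suffix that Affymetrix gives to probes that may match more than one transcript. It had 5.42, 4.49 and 5.10 in mimic arrays 1, 2 and 3, against 5.98, 5.97 and 5.05 in control arrays 1, 2 and 3. The groups overlapped, the difference was -0.66 ± 0.31 (limma adjusted p 0.428), and its sign was opposite to that of the brighter probe set, so the direction of Ctse depends on the probe set. Averaging the probe sets of a gene gave -0.10 for Ctse, 0.14 for Ctsl and 0.22 for Ctsb, with adjusted p of 0.831, 0.751 and 0.316. The second Ctsl probe set, 1457724_at, averaged 1.30 in mimic arrays and 1.56 in control arrays, near the bottom of the scale. For Ctsh the 2 probe sets differed in sign, with 0.13 ± 0.11 for 1443814_x_at. The 3 Ctsz probe sets were all lower in mimic arrays, by -0.13 ± 0.11 for 1417869_s_at and -0.22 ± 0.12 for 1417870_x_at beside the representative, and none passed.

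**Figure D4:**
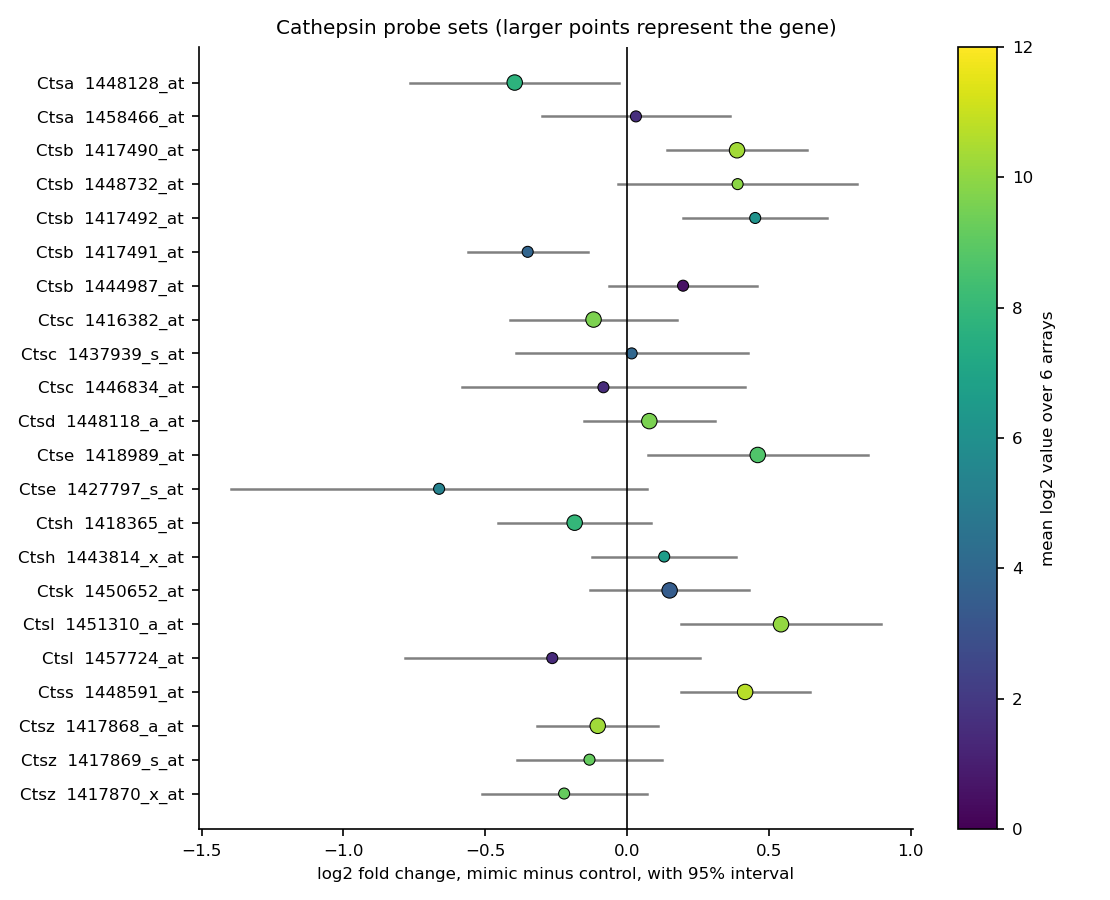
Log2 fold change (x axis, mimic minus control) with its 95% interval for each of the 22 cathepsin probe sets, grouped by gene, with larger points for the probe set that represents the gene and colour for the mean log2 value over 6 arrays. In 6 genes the probe sets lie on both sides of 0, Ctsb 1417491_at and Ctse 1427797_s_at among them, and no probe set passed the test.

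Of 13 further cathepsin genes on the array, 1 rose and 0 fell. That gene was Ctsg, a serine protease of neutrophil granules and not a lysosomal cysteine protease. It had 10.04, 10.06 and 10.05 in mimic arrays 1, 2 and 3, against 8.66, 8.99 and 9.26 in control arrays 1, 2 and 3. All mimic arrays lay above all controls (1.08 ± 0.15, limma adjusted p 0.0144), and without mimic array 2 the adjusted p was 0.0724. Ctso averaged 4.67 ± 0.28 in mimic arrays and 4.47 ± 0.32 in control arrays, and Ctsw, a protease of cytotoxic lymphocytes, averaged 1.54 ± 0.43 and 1.12 ± 0.19 (SD, n = 3 each); neither passed. The other 10, among them Ctsf and the placental genes Ctsj, Ctsm, Ctsq and Ctsr, averaged below 1, where the deposited values lie for 52.6% of the table.

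Genes that make, carry, restrain or depend on cathepsins changed in both directions. These lists were compiled with earlier results of these data known, and their counts are descriptions. For every list below, the shares over all genes were 1.17% called higher and 1.59% lower. Of the bright genes 8.75% were called, so 1 call in a short list is not read as a result about that list. Among inhibitors, 12 of 21 listed genes were measured, 1 rose, 1 fell and the median was -0.032. Serpinb1a, a serpin that blocks the granule proteases elastase and Ctsg, rose to 8.77 ± 0.16 in mimic arrays, against 7.88 ± 0.29 in control arrays (0.89 ± 0.16, limma adjusted p 0.0306). Spint1, a Kunitz-type inhibitor of trypsin-like cell surface proteases, fell to 6.89 ± 0.13 in mimic arrays, against 7.93 ± 0.31 in control arrays (-1.03 ± 0.16, limma adjusted p 0.0202). Neither is an inhibitor of lysosomal cysteine cathepsins in the way cystatins are. Both calls were lost without mimic array 2 (adjusted p 0.0873 and 0.0717). With genes of a mean under 3 left out, 5 of the 8 inhibitors kept passed, 2 higher and 3 lower. Under that filter 708 of 7662 genes were called, 300 higher and 408 lower.

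No cystatin passed over all genes, and the 4 with a mean log2 of 6 or more differed in sign. These genes, and those named below as sorting receptors and complex partners beside a called gene, were chosen after their values were seen. Cst3, the secreted general inhibitor cystatin C, had 8.65, 8.74 and 8.72 in mimic arrays 1, 2 and 3, against 10.13, 9.55 and 9.24 in control arrays 1, 2 and 3. The groups did not overlap, with control array 1 the highest (-0.93 ± 0.20, limma adjusted p 0.0618). With genes of a mean under 3 left out, Cst3 was among the 3 inhibitors called lower, so its call depended on that filter. Cst7, cystatin F, which enters lysosomes and inhibits Ctsc, differed by 0.53 ± 0.11 (adjusted p 0.0525 in limma). The cytosolic Cstb, which binds Ctsb and Ctsl, differed by 0.29 ± 0.09 (adjusted p 0.172 in limma). Stfa2l1, a stefin, had overlapping groups and differed by -0.05 ± 0.14 (adjusted p 0.907 in limma).

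Of the 12 genes of mannose 6-phosphate and sortilin sorting, all measured, 0 rose and 1 fell, with a median of -0.171. Igf2r, the larger mannose 6-phosphate receptor, was dim and had 2.25, 2.03 and 2.48 in mimic arrays 1, 2 and 3, against 3.24, 2.93 and 2.91 in control arrays 1, 2 and 3. It fell without overlap of the groups (-0.78 ± 0.14, limma adjusted p 0.0350), but its adjusted p was 0.0915 without control array 1, 0.121 without mimic array 2 and 0.0681 without control array 3. The smaller receptor M6pr differed by -0.20 ± 0.09 and Sort1 by 0.13 ± 0.09, and neither passed. Of the 11 genes of the TFEB family and its regulators, 0 rose and 0 fell by limma, 2 had an unadjusted p under 0.05, and the median was 0.054. Fnip1, a folliculin partner, had the largest difference there, 0.36 ± 0.19 with a limma adjusted p of 0.416, and passed upward at 0.90 only where each gene was read by its most variable probe set.

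Among partners and processing enzymes, 8 of 10 listed were measured, 1 rose and 1 fell. Lgmn, the asparaginyl endopeptidase legumain, which cleaves several cathepsins to their double-chain forms, had 8.30, 8.32 and 8.67 in mimic arrays 1, 2 and 3, against 7.13, 7.63 and 7.72 in control arrays 1, 2 and 3. All mimic arrays lay above all controls, and Lgmn rose (0.94 ± 0.18, limma adjusted p 0.0363), with an adjusted p of 0.0624 without control array 1 and 0.116 without mimic array 2. Ifi30, a lysosomal thiol reductase that opens disulfides for the proteases, had 7.33, 7.29 and 7.30 in mimic arrays 1, 2 and 3, against 8.51, 8.02 and 7.87 in control arrays 1, 2 and 3. It fell without overlap (-0.82 ± 0.16, limma adjusted p 0.0406), and lost the call without mimic array 2 (0.142). The Ctsa partners Neu1 and Glb1 differed by 0.02 ± 0.09 and 0.11 ± 0.09, while Psap, the Ctsd substrate, differed by -0.50 ± 0.15; none of these passed.

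The class II loading pathway, whose invariant chain Ctss and Ctsl cut, was mostly lower in mimic arrays. Of 12 listed genes 11 were measured, 6 fell and 1 rose, with a median of -1.07. Cd74, the invariant chain, fell to 8.58 ± 0.03 in mimic arrays, against 10.24 ± 0.51 in control arrays (-1.66 ± 0.23, limma adjusted p 0.0144), and H2-Ab1, a class II chain, fell by 1.73 ± 0.26 (limma adjusted p 0.0198). The gene that rose was Lgmn. No gene of the list passed without mimic array 2, and Lgmn did not pass without control array 1 or control array 3.

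Among granule proteases listed beside Ctsc, 11 of 12 were measured, 3 rose and 0 fell, with a median of 0.187. Whether Ctsc activates each listed protease was not tested. Over all genes 1.17% rose and 1.59% fell. Gzma, Gzmc, Mcpt4, Tpsab1 and Tpsb2 averaged below 1, and the median includes them. Elane, neutrophil elastase, rose to 10.37 ± 0.03 in mimic arrays, against 9.39 ± 0.35 in control arrays (0.98 ± 0.17, limma adjusted p 0.0272). Gzmb, granzyme B, rose to 3.74 ± 0.28 in mimic arrays, against 1.72 ± 0.36 in control arrays (2.02 ± 0.21, limma adjusted p 0.00731), and the remaining one was Ctsg. The control values of Gzmb, 1.40, 1.66 and 2.11 in arrays 1, 2 and 3, lie near the bottom of the scale, which may limit the size of that difference. Gzmb alone passed without mimic array 2. Ctsc itself, given above, did not pass.

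Among osteoclast and macrophage partners of Ctsk, all 13 were measured, 0 rose and 3 fell, with a median of 0.005. Dcstamp, a membrane protein needed for cell fusion, had 1.67, 1.60 and 1.92 in mimic arrays 1, 2 and 3, against 5.37, 4.40 and 4.13 in control arrays 1, 2 and 3. It fell by 2.90 ± 0.29 (limma adjusted p 0.00702), and Car2, carbonic anhydrase II, fell by 1.39 ± 0.23 (limma adjusted p 0.0237). Ocstamp, a relative of Dcstamp, fell by 0.86 ± 0.14 (limma adjusted p 0.0218), and Dcstamp alone passed without mimic array 2. The mimic means of Dcstamp, 1.73, and Ocstamp, 0.82, lie near the bottom of the scale, which may limit the size of both falls. Acp5, the osteoclast acid phosphatase, averaged 3.32 ± 0.15 in mimic arrays and 3.36 ± 0.04 in control arrays (SD, n = 3 each) and did not pass.

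**Figure D5:**
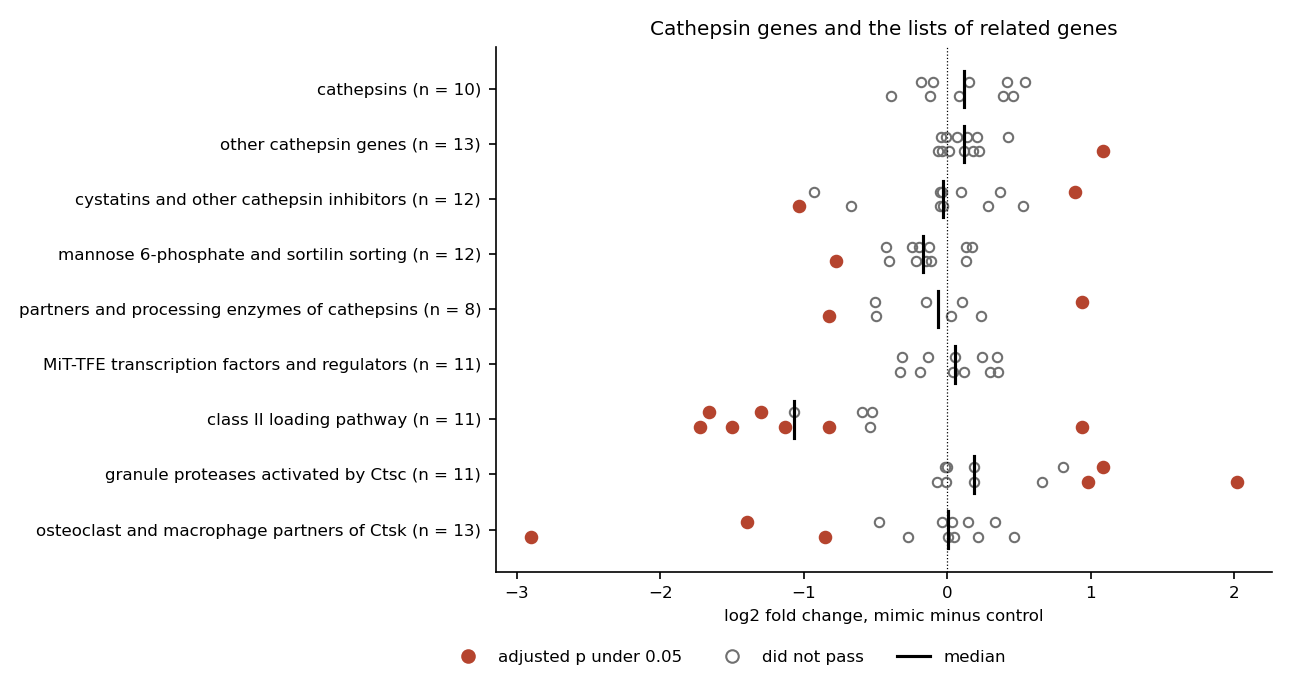
Log2 fold changes (x axis, mimic minus control) of the cathepsin genes and of the lists of related genes, 1 line per list, with filled points for genes at an adjusted p under 0.05 and a bar at each list's median. The class II list lies furthest left, with a median of -1.07, and the 10 cathepsins hold no filled point.

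Marker genes of several cell types were also read as lists. Beside the counts of every marker list stand the shares over all genes, 1.17% called higher and 1.59% lower. The dendritic cell list fell in 7 of 14 measured genes and rose in 0 (median -0.902), and its summed linear signal was 227 to 243 in mimic arrays and 600 to 1420 in control arrays, highest in control array 1. Its markers Cd209a and Xcr1 averaged below 1. The neutrophil precursor list rose in 2 of 7 and fell in 0 (median 0.974), with sums of 7320 to 7470 in mimic arrays and 3200 to 5400 in control arrays, lowest in control array 1. The macrophage list, with 2 of 14 risen (Fcgr1 and C1qb) and 1 fallen (Csf1r), had overlapping sums of 2130 to 2340 in mimic arrays and 2260 to 2270 in control arrays, with Cd163 below 1. Without mimic array 2 the calls fell to 3 dendritic, 2 monocyte, 0 neutrophil precursor and 0 macrophage markers, and without control array 1 there were 4 neutrophil precursor calls. The part of these cell types in the cathepsin values was not tested.

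Monocyte markers fell in 4 of 7 measured genes and rose in 1, with sums of 2870 to 3170 in mimic arrays and 2560 to 2620 in control arrays. That sum ran opposite to most of its genes: 5 of the 7 were lower in mimic arrays, while Chil3, which did not pass, averaged 11.12 ± 0.11 in mimic arrays and 10.79 ± 0.07 in control arrays and Ms4a4c rose (SD, n = 3 each). Mature neutrophil markers fell in 1 of 9, and the mast cell and basophil list rose in 2 of 9. The eosinophil list rose in 1 of 6, and stem and progenitor markers fell in 1 of 9. Neither the 6 megakaryocyte nor the 5 erythroid markers passed in limma, with 4 and 2 of them at an unadjusted p under 0.05. B cell markers fell in 1 of 7, and T and NK cell markers rose in 1 and fell in 1 of 8. These lists share genes with those above, such as Elane, Ctsg, Gzmb and H2-Ab1, so their counts are not independent.

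The genes most like a cathepsin over the 6 arrays were sought for Ctsl and Ctsa, the members with the largest difference in each direction. Likeness was the root mean square difference of log2 values, each gene centred on its control mean, over the 2494 bright genes that are not cathepsins. For Ctsl the nearest were Rtp4 at 0.0514, Pcgf5 at 0.0553 and Lrg1 at 0.0636. Rtp4, a receptor transport protein induced by interferon, had 8.63, 8.58 and 8.69 in mimic arrays 1, 2 and 3, against 7.71, 8.14 and 8.26 in control arrays 1, 2 and 3, with control array 1 lowest as for Ctsl. For Ctsa the nearest were Irf8 at 0.0195, Pirb at 0.0422 and Sars at 0.0508. Irf8, a transcription factor of monocytes and dendritic cells, had 6.03, 5.80 and 6.13 in mimic arrays 1, 2 and 3, against 6.68, 6.29 and 6.20 in control arrays 1, 2 and 3, with control array 1 highest as for Ctsa. These genes were chosen for their likeness over the same 6 arrays, so the matching place of control array 1 is no separate result. None of these 6 genes passed the test over all genes in limma, with adjusted p of 0.0795 to 0.341.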

How the data were processed

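Trizol RNA behind 3 mimic and 3 control arrays (Affymetrix MOE430 2.0) was converted to biotin-labelled cRNA, per the labels' protocols. The deposited values are log2 signals, 1 per probe set and array, for which the submitters' processing notes name RMA and affy. Probe set definitions, filters and centring are not stated in the sources used here. Values were used as deposited. Column medians ran from 0.84 to 0.92.

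Of 45101 probe sets, 64 were Affymetrix controls, 34945 had 1 gene symbol, 932 several and 9160 none listed. Symbols were updated through gene identifiers to RefSeq for 34741 of the 34945. Genes were read by the probe set of highest mean, from those with 1 symbol. Arrays were grouped by the treatment in the labels and compared by lmFit and eBayes without covariates (limma 3.58.1, R 4.3.3), and the script was tested on simulated data. The median SE was 0.12. Lists were described by counts and medians, over the log2 values for genes and, for marker sums, over antilogged values. Promoters and the microRNA came from RefSeq tables of GRCm38.p6.

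The members, lists and naming rule were chosen with earlier results of these data known. The rule names all members and their probe sets, other cathepsin genes, up to 3 called genes with the largest change per list (otherwise the 1 largest), and the 3 genes most like Ctsl and Ctsa. Genes outside it were chosen after their values were seen. Alternatives were omitting each array, a block for the replicate number, removing dim genes, trended robust variance, array weights, centring, a second quantile normalization and other choices of probe set. Some marker genes, such as Ly6g, were not analysed here.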

Additional observations from a re-analysis of the deposited data

How the results depend on the processing

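The cathepsin count of 0 became 1 with genes of a mean under 3 left out and with array weights, and 3 with genes under 5 left out and with a trended robust variance; Ctsk was not tested under the filter at 5. It stayed 0 with each array left out, with 3 to 5 members at an unadjusted p under 0.05, though some of these fits called no gene at all. Over 15 alternatives the members kept direction and side of the threshold in 139 of 149 values, 8 passed newly and 2 reversed. The reversals were Ctse, at -0.10 with probe sets averaged and -0.66 with the most variable one. The adjusted p of Ctss ranged from 0.0121 to 0.205, of Ctsb from 0.0317 to 0.353 and of Ctsl from 0.0425 to 0.751.

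With each array left out, the log2 difference was 0.35 to 0.47 for Ctss, 0.38 to 0.67 for Ctsl, 0.30 to 0.47 for Ctsb, 0.28 to 0.59 for Ctse and -0.49 to -0.25 for Ctsa. Smaller differences ran from 0.0072 (without control array 1) to 0.12 for Ctsd. The range was 0.048 (without mimic array 2) to 0.26 (without mimic array 1) for Ctsk. It was -0.22 (without control array 1) to -0.022 (without control array 2) for Ctsc. For Ctsh it was -0.25 to -0.072 (without control array 1), and for Ctsz -0.15 to -0.061 (without mimic array 2). For every member but Ctss the largest and smallest sizes differed by more than 1.5 times. Dim or cross-matching probe sets changed sign in such fits: Ctsa 1458466_at ran from -0.11 to 0.12, Ctsc 1437939_s_at from -0.073 to 0.17 and Ctsc 1446834_at from -0.27 to 0.092. The median over the members ran from 0.059 to 0.185 in these fits, and was 0.043 with array weights, 0.026 with probe sets averaged and -0.002 with the most variable probe sets. The causes of these moves were not tested.

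Calls over all genes, 503, ran from 0 to 413 with an array left out, with 2343 to 2746 genes at an unadjusted p under 0.05 where the count was 0, and came to 1047 with array weights. Calls over probe sets, 404, ran from 0 to 314 with an array left out and were 835 and 780 with means under 3 and 5 left out, 812 with trended variance, 944 with array weights and 634 (315 higher, 319 lower, against 148 and 256) after a second quantile normalization. Same-numbered arrays deviated with correlations of -0.114, 0.192 and -0.24, against -0.271 to 0.297 for arrays of different numbers. With 3 arrays a group, centred within groups, such values cannot show whether the numbers pair the arrays. With the numbers as a replicate block 314 genes, 69 probe sets and 0 cathepsins were called. Named genes of the lists and the uncalled genes most like Ctsl and Ctsa, 39 together, kept their side in 412 of 568 values. They lost it in 145, gained it in 11 and reversed in 0.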
